A study of Mus musculus with 11 samples.

Results

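The 10 genes followed here are transcribed in neurons of the inner retina, and they were measured in whole-eye RNA of mice lacking miR-211 and of their controls. Of these, 6 encode neuropeptide precursors (Cck, Sst, Npy, Vip, Tac1 and Penk) and 4 encode proteins of inhibitory transmission by GABA or glycine (Gad1, Gad2, Slc6a9 and Slc32a1). The set was chosen from earlier values of the same genotype contrast in these libraries, in which Cck was lower in the KO. For that reason the differences between genotypes in the 10 genes are given as a description, without a test. All 10 were found by their Ensembl identifiers among the 38393 genes of the files, and all 10 were among the 15767 genes that reached 1 CPM (counts scaled to library size) in no fewer than 5 of the 11 libraries. The libraries came from 5 wild type (WT) and 6 miR-211-/- (KO) animals on a C57BL/6 background (C57Bl/6J in the study's methods), aged 1–2 months. The KO carries a germline deletion around the precursor of miR-211 in every cell, and the WT animals were littermates. By the study's account, each library held retina, RPE, choroid, sclera and ciliary body, with lens and cornea removed. Amacrine cells were thus only part of the tissue. All KO animals were male according to the study's methods, whereas the WT animals were of both sexes.

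Amacrine cells are the inhibitory interneurons of the inner retina, and nearly all of them release GABA or glycine. GABA is made from glutamate by the decarboxylases encoded by Gad1 and Gad2, and the vesicular transporter encoded by Slc32a1 loads both GABA and glycine into synaptic vesicles. Slc6a9 encodes GLYT1, the membrane transporter that keeps glycine high inside glycinergic amacrine cells and clears it from the synapse. Smaller groups of amacrine cells also store peptides, which are cut from longer precursors, packed in dense-core vesicles and released to act on G protein-coupled receptors.

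The deleted miRNA and its close paralogue miR-204 are shown first, because they share the seed by which miRNAs recognize their targets. The mature sequences are those of RefSeq on GRCm38.p6, 5′ to 3′, with the seed (bases 2 to 8) in capitals.
miR-211-5p, chr7:64205831-64205852, plus strand: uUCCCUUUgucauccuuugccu
miR-204-5p, chr19:22750610-22750631, plus strand: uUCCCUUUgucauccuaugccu
The mature forms differ at 1 position counted from the 5′ end, U17A from miR-211 to miR-204, which lies outside the seed. The DNA letters complementary to the seed, AAAGGGA, occurred in the longest annotated 3′ UTR of 2410 of the 14505 tested genes with such a region (16.6%). They occurred in that of none of the 10 genes, whose longest 3′ UTRs ran from 156 bases in Sst to 3528 bases in Gad2. The absence says only that these 7 letters were not in these windows.

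RefSeq promoter windows, from 250 bases before to 50 bases after the start of transcription, were found for 9 of the 10 genes, all but Penk. They were searched on both strands for TGACGTCA, the full cAMP response element known from peptide genes, and for TATAAA, the core of the TATA box. The 2 motifs share no position in these windows. The cAMP response element was found in 1.79% of the 32851 windows of the table, and among these genes in Sst alone, 48 bases before the start. TATAAA was found in 13.6% of all windows, and here in those of Vip and Gad1. In Vip it stood 30, 147 and 157 bases before the start, and in Gad1 it stood on the opposite strand, 141 bases before it. The windows of Cck, which had the lowest fold change of the set, and of the 2 peptide genes that held a motif are printed from GRCm38.p6 in the direction of transcription, with the motifs in capitals.
Cck, chr9:121495645-121495944, minus strand: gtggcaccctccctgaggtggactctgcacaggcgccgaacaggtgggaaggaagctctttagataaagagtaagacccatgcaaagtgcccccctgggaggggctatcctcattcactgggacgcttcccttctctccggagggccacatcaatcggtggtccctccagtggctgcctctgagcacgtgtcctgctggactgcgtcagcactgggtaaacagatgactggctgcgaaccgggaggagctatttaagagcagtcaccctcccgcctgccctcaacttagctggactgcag
Sst, chr16:23890795-23891094, minus strand: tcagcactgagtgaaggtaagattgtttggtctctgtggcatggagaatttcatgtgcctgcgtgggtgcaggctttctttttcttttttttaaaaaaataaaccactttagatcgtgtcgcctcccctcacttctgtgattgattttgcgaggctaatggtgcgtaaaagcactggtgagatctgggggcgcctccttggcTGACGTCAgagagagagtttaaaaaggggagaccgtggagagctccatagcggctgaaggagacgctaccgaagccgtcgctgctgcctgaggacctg
Vip, chr10:5638968-5639267, plus strand: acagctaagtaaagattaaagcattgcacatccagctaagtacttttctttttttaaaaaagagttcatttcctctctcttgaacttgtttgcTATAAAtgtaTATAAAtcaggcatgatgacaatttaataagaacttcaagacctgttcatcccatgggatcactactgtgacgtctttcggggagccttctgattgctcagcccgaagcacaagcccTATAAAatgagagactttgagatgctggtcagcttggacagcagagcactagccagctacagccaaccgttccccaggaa
The Cck window held neither motif.

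The libraries held between 20282241 and 36317673 read pairs assigned to genes. The column names of a table supplied with the study carry either a mouse number or an age, and the libraries were matched to them by their counts. By these names WT replicates 1 and 2 and KO replicates 1 to 3 form a mouse-number series, and WT replicates 3 to 5 and KO replicates 4 to 6 an age series. Genotype was therefore compared over all libraries and within each series. Of the 15 amacrine markers found in the files (such as Tfap2a, Pax6 and Chat, none of them one of the 10 genes), none was at 0 everywhere, and their summed level ran from 757 to 1005 CPM in WT and from 923 to 1058 CPM in KO libraries. Pax6, which the study used to mark both amacrine and ganglion cells, alone gave between 342 and 419 CPM of this sum. WT replicate 1 had the lowest sum of 11 ganglion cell markers, at 226 CPM against at least 654 CPM in the other libraries, and also the lowest amacrine and rod sums. Its amacrine markers were not all low. Calb2 was at 75.9 CPM, against at least 162 CPM in the other libraries, but Chat was at 10.3 CPM, within their range. Th, at 8.81 CPM, was highest there. WT replicate 4 held 130137 CPM of 15 lens markers and KO replicate 3 held 27488 CPM. The lens had been removed by the study's account, so some libraries were not free of lens RNA. Sums of 7 surface epithelium markers ran from 1350 to 9640 CPM. Sums of 7 adipocyte markers ran from 10.5 to 542 CPM in WT (median 154) and from 9.59 to 269 CPM in KO libraries (median 13.6). Sums of 10 muscle markers had medians of 6423 CPM in WT and 2716 CPM in KO libraries, with overlapping ranges. EdgeR called 0 of these adipocyte and muscle markers between genotypes. The part of such tissue in the differences between genotypes was not tested. Xist reads reached 794 CPM or more in WT replicates 1, 3 and 5, whereas all other libraries stayed at or below 1.29 CPM.

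Levels were compared between genes on the FPKM scale, which corrects for transcript length. In WT libraries the mean level was highest for Penk, at 75.0 ± 26.4 FPKM (SD, n = 5), followed by Slc6a9 at 70.0 ± 11.01 and Gad1 at 65.7 ± 12.4. Slc32a1 came next at 24.3 ± 5.35 FPKM, then Cck at 15.6 ± 4.62 and Npy at 13.3 ± 3.96. Gad2 at 7.90 ± 1.85, Tac1 at 7.604 ± 1.23, Vip at 5.69 ± 1.00 and Sst at 2.87 ± 0.927 FPKM closed the order. Among all tested genes ranked by mean FPKM over the 11 libraries, Slc6a9, Gad1 and Penk lay at percentiles 94.3, 93.9 and 93.5, and Sst at 21.4. Of the 9 neighbouring pairs in this order, 5 stood in the same order in all 5 WT libraries, namely Slc6a9 above Gad1, Gad1 above Slc32a1, Slc32a1 above Cck, Tac1 above Vip and Vip above Sst. Penk and Slc6a9, Cck and Npy, Npy and Gad2, and Gad2 and Tac1 changed places in at least 1 library.

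In KO libraries Slc6a9 stood first, at 74.7 ± 13.1 FPKM (SD, n = 6), before Gad1 at 72.4 ± 11.7 and Penk at 58.7 ± 11.04. Slc32a1 followed at 24.7 ± 6.72 FPKM, Npy at 14.7 ± 3.24 and Cck at 12.1 ± 2.53. Tac1 at 9.17 ± 1.08, Gad2 at 8.55 ± 1.41, Vip at 6.15 ± 0.575 and Sst at 2.94 ± 0.921 FPKM came last. Again 5 of the 9 neighbouring pairs kept their order in every library. By these means Penk stood below Slc6a9 and Gad1, and Cck below Npy. None of these pairs kept 1 order among the libraries of either genotype. Gad1, for example, lay above Penk in 4 of the 6 KO libraries.

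**Figure D1:**
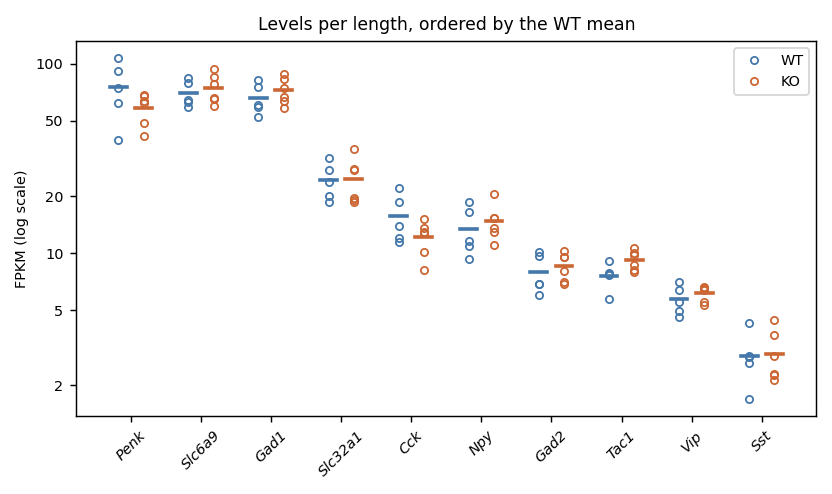
Level of each gene in FPKM (log axis) in each library (open circles) with the mean of the genotype (bars), for 5 WT (blue) and 6 KO (orange) libraries, ordered by the WT mean. Penk, Slc6a9 and Gad1 lay highest and Sst, at about 2.9 FPKM, lowest in both genotypes.

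Cck encodes the precursor of cholecystokinin, a peptide of a group of amacrine cells. Its level in WT libraries was 7.29, 7.65, 11.2, 10.1 and 13.7 CPM in replicates 1 to 5, and in KO libraries it ran from 5.21 to 9.14 CPM with a median of 7.99. All 6 KO libraries lay below the WT median, 2 of them below the lowest WT library, and the ranges of the genotypes overlapped. The log2 fold change of KO against WT was -0.42 (standard error 0.21). Within the age series the 3 WT libraries lay between 10.1 and 13.7 CPM and the 3 KO libraries between 7.88 and 9.14 CPM, without overlap. Within the mouse-number series the KO libraries, from 5.21 to 8.09 CPM, lay on both sides of the 2 WT libraries. The log2 fold change was -0.47 in the age series alone and -0.19 in the mouse-number series alone, so its size differed by more than 1.5 times between them. With the WT libraries without Xist reads above 10 CPM (replicates 2 and 4) against all KO libraries it was -0.24.

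Penk encodes proenkephalin, the precursor of the enkephalins, which act on opioid receptors. It was read at 46.6, 87.9, 104, 84.3 and 122 CPM in WT replicates 1 to 5, and between 47.8 and 79.6 CPM with a median of 73.5 in KO libraries. All KO libraries lay below the WT median, but WT replicate 1 lay below every KO library. The log2 fold change was -0.39 (standard error 0.23). In the age series the WT libraries (84.3 to 122 CPM) lay above the KO libraries (47.8 to 77.4 CPM), with a log2 fold change of -0.78. In the mouse-number series the direction was the opposite, at 0.17, with WT libraries at 46.6 and 87.9 CPM and KO libraries between 72.3 and 79.6 CPM. Penk shares 233 bases of exon with A830012C17Rik on the other strand, and strand was not stated for these reads, so part of its count is uncertain.

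Tac1 encodes the precursor of substance P and neurokinin A. Its WT levels were 5.59, 7.61, 8.57, 8.86 and 7.44 CPM in replicates 1 to 5, and its KO levels ran from 7.87 to 9.88 CPM with a median of 8.87. None of the KO libraries lay below the WT median of 7.61 CPM, and the log2 fold change was 0.21 (standard error 0.16), or 0.12 without WT replicate 1. The lowest value belonged to WT replicate 1, which also had the lowest amacrine and ganglion cell marker sums.

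Npy encodes neuropeptide Y. It was read at 5.59, 8.59, 5.64, 10.96 and 4.67 CPM in WT replicates 1 to 5, and between 5.47 and 10.5 CPM with a median of 7.17 in KO libraries. The genotypes overlapped over most of their range, and KO differed from WT by 0.07 on the log2 scale (standard error 0.26). The 3 WT libraries with Xist reads were the 3 lowest, between 4.67 and 5.64 CPM, and the other 2 stood at 8.59 and 10.96 CPM. Against these 2 libraries alone, the log2 fold change of the KO was -0.39. WT replicate 4 and KO replicate 3, which had the most Npy at 10.96 and 10.5 CPM, also had the highest lens marker sums, at 130137 and 27488 CPM. WT replicate 2, at 8.59 CPM of Npy, held 31.1 CPM of lens markers. The parts of sex and of lens tissue in these values were not tested.

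Vip encodes vasoactive intestinal peptide, which marks another group of amacrine cells. Its levels were 7.29, 9.57, 9.87, 9.41 and 6.62 CPM in WT replicates 1 to 5, and between 7.77 and 9.49 CPM with a median of 9.36 in KO libraries. The KO range lay inside the WT range, and the log2 fold change was 0.06 (standard error 0.16). Sst encodes somatostatin and was the least abundant of the 10 genes, with between 23 and 56 read pairs per library. It stood at 1.56, 0.94, 2.24, 1.80 and 1.41 CPM in WT replicates 1 to 5, and between 1.12 and 2.41 CPM with a median of 1.37 in KO libraries. The log2 fold change was -0.01 (standard error 0.28). Counting error alone was 16.2% of the Sst level at its median count, against 7.02% for Cck and 2.44% for Penk. The SD of log2 CPM among libraries of a genotype was 0.42 for Sst, 0.34 for Cck and 0.42 for Penk.

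**Figure D2:**
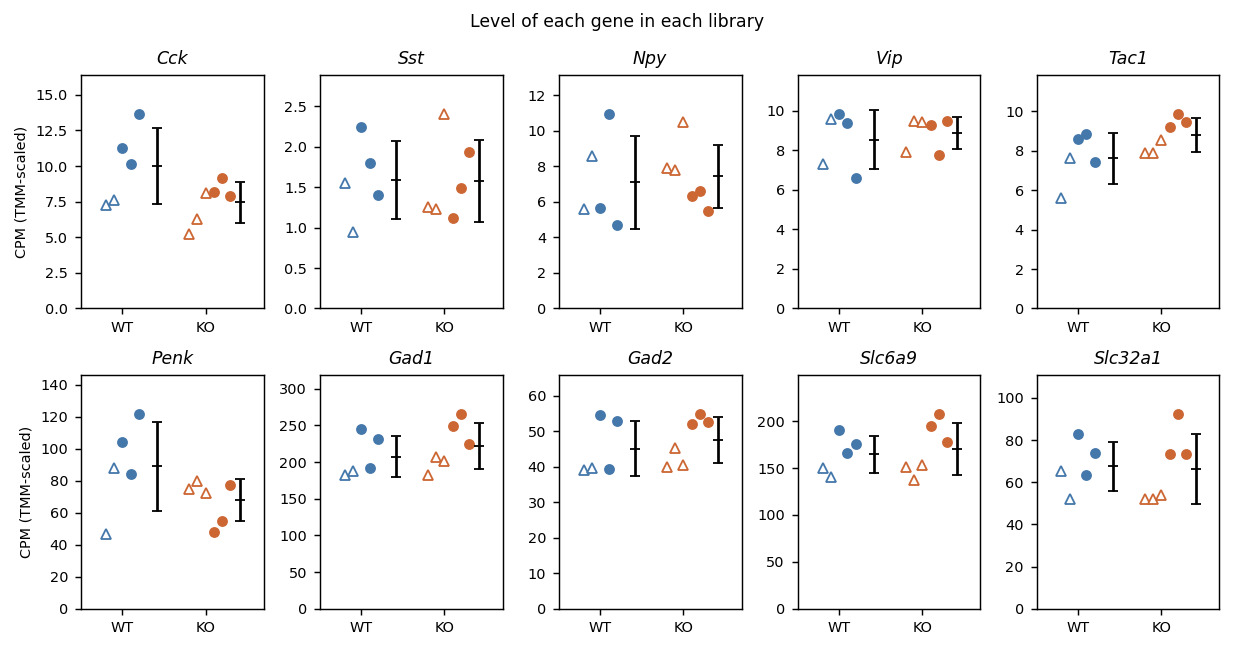
Level of each of the 10 genes in CPM, scaled by TMM library sizes, in each library of the mouse-number series (open triangles) and the age series (filled circles), with mean and SD beside each genotype (5 WT, blue, and 6 KO libraries, orange). Cck and Penk were lower in KO than in WT libraries of the age series and overlapped in the mouse-number series.

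The log2 fold changes of the 4 inhibitory genes lay between -0.03 and 0.10. The SD of log2 CPM among libraries of a genotype, pooled over both, was 0.20 to 0.31 for them and 0.20 to 0.42 for the peptide genes. Gad1, which encodes the GAD67 decarboxylase, was read at 182, 187, 245, 191 and 232 CPM in WT replicates 1 to 5. In KO libraries it ran from 183 to 266 CPM with a median of 216. The ranges overlapped over most of their extent, and the log2 fold change was 0.10 (standard error 0.14).

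Gad2 encodes GAD65, the decarboxylase found at synaptic terminals. Its WT levels were 39.1, 39.7, 54.4, 39.4 and 52.7 CPM in replicates 1 to 5, and its KO levels ran from 39.9 to 54.9 CPM with a median of 48.6. The log2 fold change was 0.08 (standard error 0.14). None of the KO libraries lay below the WT median of 39.7 CPM, yet 2 WT libraries lay above 50 CPM.

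Slc32a1, the vesicular transporter gene, stood at 65.2, 52.0, 83.1, 63.4 and 74.0 CPM in WT replicates 1 to 5 and between 51.8 and 92.5 CPM with a median of 63.7 in KO libraries, and the log2 fold change was -0.03 (standard error 0.18). Slc6a9, the glycine transporter gene, was read at 150, 141, 190, 166 and 175.4 CPM in WT replicates 1 to 5 and between 137 and 208 CPM with a median of 165 in KO libraries, and its log2 fold change was 0.05 (standard error 0.14). For both transporters the KO range contained the WT range. Slc32a1 shares 697 bases of exon with Gm14205, and Slc6a9 shares 1986 bases with Gm17114, Ccdc24 and B4galt2, in each case on the other strand. Slc6a9 is also transcribed in Müller glia, so its level is not that of amacrine cells alone.

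**Figure D3:**
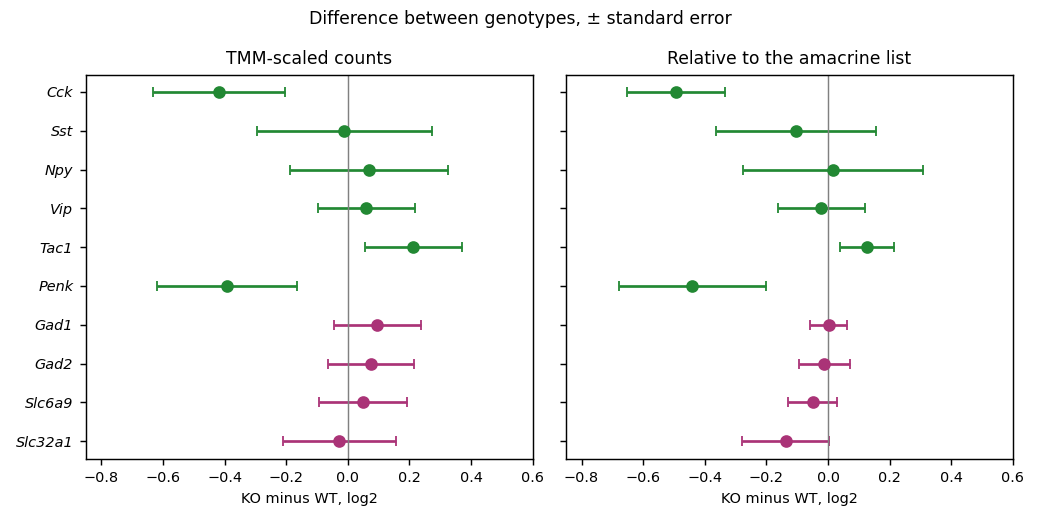
Log2 difference of KO against WT for each gene, with standard errors, from TMM-scaled counts (left) and relative to the mean log2 CPM of the amacrine markers in the same library (right). Neuropeptide genes are green and inhibitory genes purple. Cck and Penk lie lowest on both scales, at -0.42 and -0.39 on the left.

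Over all tested genes, edgeR's likelihood-ratio test at an adjusted p-value under 0.1 called 1 gene between genotypes (0.00634%), which was Xist, and before adjustment 330 genes were under 0.05 (2.09%). The median log2 fold change was 0.05 over the 10 genes and 0.00 over all tested genes. Every KO library lay below every WT library for 12 genes (0.0761%), and the 10 genes were not among them. Within the age series this was so for Cck and Penk, and for 943 of all tested genes (5.98%). Because the genes were chosen with this contrast known, nothing is read from these counts. Relative to the mean log2 CPM of the amacrine markers in the same library, the differences were -0.49 (standard error 0.16) for Cck and -0.44 (standard error 0.24) for Penk, and those of the inhibitory genes lay between -0.14 and 0.00. In bulk tissue, fewer cells of a type and less RNA per cell cannot be told apart.

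Genes that act before or after these 10 were examined in 6 lists with 86 genes, of which 65 were tested. EdgeR's likelihood-ratio test called 0 of the 65 between genotypes, with 1 gene under 0.05 before adjustment. Both edgeR's quasi-likelihood test and DESeq2 also called 0, with 1 gene each under 0.05 before adjustment. The median log2 fold change of the 65 was 0.06, and 20 were lower in the KO.

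Among 15 other peptide precursors, 6 were tested, and the highest levels belonged to Cartpt and Tac2. Cartpt, the precursor of the CART peptide and the gene under 0.05 before adjustment, had 40.4 ± 5.01 FPKM (SD, n = 5) in the 5 WT libraries and 51.5 ± 9.80 (SD, n = 6) in the 6 KO libraries. In the edgeR test KO exceeded WT on the log2 scale by 0.30 (standard error 0.14, adjusted p = 1.00). Tac2, which encodes neurokinin B, was at 13.3 ± 1.57 and 15.1 ± 2.88 FPKM. All 17 genes of peptide processing and release were tested, and their log2 fold changes lay between -0.17 and 0.18. Cpe, the carboxypeptidase that trims peptide precursors, was at 406 ± 55.1 FPKM in WT and 432 ± 39.1 in KO libraries, and the granin Scg2 at 105 ± 15.7 and 111 ± 4.98 FPKM. Of 19 peptide receptors, 9 were tested, with Vipr2 (a VIP receptor) at 12.5 ± 2.41 and 13.7 ± 1.87 FPKM and Tacr3 (the neurokinin B receptor) at 5.30 ± 1.09 and 6.18 ± 1.15 FPKM. The 3 opioid receptors, which bind the Penk peptides, had at most 10 read pairs in any library and were not tested.

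On the side of inhibitory transmission, all 6 genes of GABA uptake and breakdown were tested, with log2 fold changes between -0.22 and 0.08. The GABA transporter gene Slc6a11 was at 36.7 ± 7.27 FPKM in WT and 39.8 ± 9.25 in KO libraries. Of 18 GABA receptor subunits, 16 were tested, and 2 of these were lower in the KO. Gabbr1, a subunit of the metabotropic receptor, was at 47.0 ± 7.95 and 50.8 ± 7.23 FPKM. Among 11 genes of glycine receptors, their anchoring, glycine transport and glycine breakdown, log2 fold changes lay between -0.12 and 0.25. Gcsh, of the glycine cleavage system, was at 20.6 ± 3.40 and 23.7 ± 3.62 FPKM.

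The 10 genes differed in how they varied from library to library. The 4 inhibitory genes varied together, with Pearson's r of log2 CPM over the 11 libraries between 0.81 and 0.95 in their 6 pairs. The closest pair was Gad1 and Gad2, whose FPKM ratio was 8.38 ± 0.429 (SD) over the 5 WT and 8.48 ± 0.422 (SD) over the 6 KO libraries, with a coefficient of variation of 4.82% over all 11. The ratio of Slc6a9 to Slc32a1 was 2.92 ± 0.274 in WT and 3.09 ± 0.320 in KO libraries, and varied by 9.94%. In the 15 pairs of neuropeptide genes r lay between -0.34 and 0.50 (median 0.18), and between -0.32 and 0.65 (median 0.19) when each library was taken as its deviation from the mean of its genotype. The FPKM ratio of Penk to Cck varied by 29.7% and that of Npy to Cck by 39.6%.

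Between the groups, Cck and Tac1 had positive correlations with all 4 inhibitory genes, from 0.52 to 0.64 for Cck and from 0.38 to 0.62 for Tac1. As deviations from the genotype means, the values of Cck with the inhibitory genes were higher, from 0.71 to 0.83, and that of Cck with Tac1 was 0.65 instead of 0.18. Npy had negative correlations with all 4, from -0.69 to -0.45, and those of Penk lay between -0.13 and 0.12. These values describe 11 libraries that share tissue composition and series within them. The 4 tested genes most like Cck by this measure over the 11 libraries were Gfra1 (0.880), Exoc7 (0.875), Ift46 (0.859) and Trim17 (0.854). Among the other 9 genes of the set the nearest to Cck was Slc32a1, at r of 0.64 and rank 593 of 15766.

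**Figure D4:**
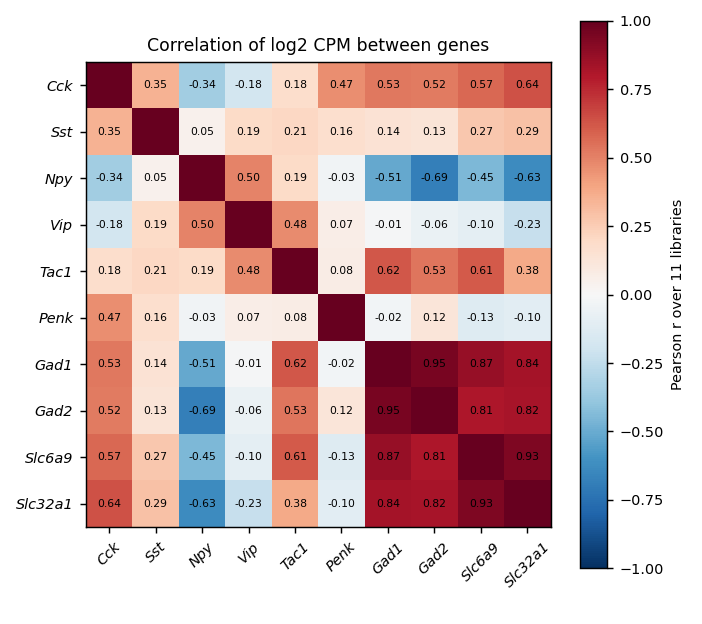
Pearson's r of log2 CPM over the 11 libraries for each pair of the 10 genes (colour scale from -1 to 1, value in each cell). The 4 inhibitory genes form a block from 0.81 to 0.95, and Npy is negative with each of them.

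The contrast between the library series was not named in the choice of genes. It uses the same libraries, however, and was tested after the data had been seen. With genotype in the model, edgeR's likelihood-ratio test called 6 of the 10 genes, all higher in the age series, where 2309 of all tested genes were called higher (14.6%) and 3420 lower (21.7%), which is 36.3% called in either direction. All 4 inhibitory genes were among them. Slc32a1 was at 55.0 ± 5.76 CPM (SD, n = 5) in the mouse-number series and 76.7 ± 9.94 (SD, n = 6) in the age series, with a log2 difference of 0.48 (standard error 0.12, edgeR adjusted p = 0.000638). Slc6a9, at 146 ± 6.82 and 185.3 ± 15.0 CPM, differed by 0.35 (standard error 0.09, edgeR adjusted p = 0.0022). The differences were 0.33 for Gad2 and 0.30 for Gad1 (edgeR adjusted p = 0.00485 and 0.0262).

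Cck was at 6.91 ± 1.16 CPM (SD, n = 5) in the mouse-number series and 10.04 ± 2.18 (SD, n = 6) in the age series. Its log2 difference was 0.49 (standard error 0.15, edgeR adjusted p = 0.00813). Between genotypes it was -0.35 with the series in the model, and -0.42 without. Tac1 differed by 0.28 (edgeR adjusted p = 0.0687), and this call was lost without any 1 of WT replicates 1 and 3 and KO replicates 1, 2, 4, 5 and 6, whereas the other 5 genes remained called with each library left out. Sst, Vip and Penk differed by 0.18, 0.00 and 0.08 on the log2 scale, and Npy by -0.29, none of them called. Among the KO libraries alone 5 of the 10 were called, Npy (lower) and the 4 inhibitory genes, beside 27.8% of all tested genes. With the 2 against 3 WT libraries alone edgeR called 0 of the 10 and 1.67% of all tested genes, and 1 of the 10, Cck, had an unadjusted p-value under 0.05, with a log2 difference of 0.65. The effect of genotype was not shown to differ between series for any of the 10 genes (edgeR interaction term, adjusted p = 1.00), a test that called 3 of all tested genes (0.019%).

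**Figure D5:**
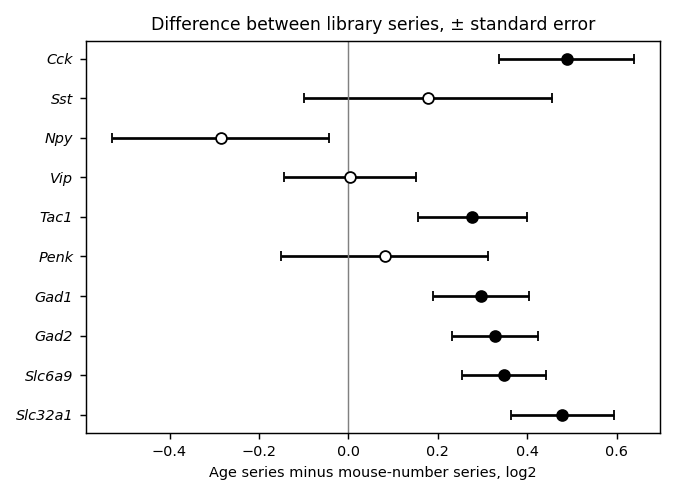
Log2 difference of the age series (6 libraries) against the mouse-number series (5 libraries) for each gene, with standard errors, and filled points where edgeR's adjusted p-value was under 0.1. The 4 inhibitory genes, Cck and Tac1 lie between 0.28 and 0.49.

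Other cell types moved with the series. All 10 muscle markers were called lower in the age series, with summed levels from 1077 to 6423 CPM there and from 2429 to 11022 CPM in the mouse-number series, and so were all 6 tested adipocyte markers and 5 of 7 markers of surface epithelium. Of 14 tested amacrine markers, 7 were called higher and 1 lower, with a median log2 difference of 0.21. Markers of other retinal neurons moved in the same direction, with 5 of 11 ganglion cell markers (median 0.54), 5 of 11 bipolar cell markers (median 0.20), 1 of 5 horizontal cell markers (median 0.23) and 1 of 10 rod markers (median 0.21) called higher and none lower. Relative to the mean of the amacrine markers, the differences between series were 0.37 (standard error 0.19) for Cck, 0.32 (standard error 0.12) for Slc32a1, 0.18 (standard error 0.07) for Slc6a9, 0.16 (standard error 0.06) for Gad2 and 0.12 (standard error 0.05) for Gad1. On this scale Npy differed most, by -0.47 (standard error 0.22), Tac1 by 0.10 (standard error 0.09), Vip by -0.16, Sst by 0.04 and Penk by -0.02. The part of tissue composition in the series difference was not tested, and the animals' age and any step of preparation that the names may stand for cannot be told apart.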

How the data were processed

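RNA of whole eyes, from which lens and cornea had been removed by the study's account, was read in 100-nt pairs from 5 WT and 6 KO animals. The authors quantified genes of Gencode release M4 with RSEM 1.2.19 (version from the submitters' processing notes), and deposited an expected count and an FPKM value for each gene and library. RSEM was run with its standard parameters. The strand of the reads is not given in the sources used here. Expected counts were rounded, and genes reaching 1 CPM in 5 or more of the 11 libraries were tested with edgeR 4.0.16 in R 4.3.3 (TMM, glmFit, glmLRT, no term beside genotype, Benjamini-Hochberg adjusted p under 0.1). The study's methods state the expression filter, an edgeR generalized linear model and the threshold, and the other settings were chosen here. CPM values use TMM library sizes, and log2 CPM a prior count of 2. FPKM values deposited by the authors were used for levels between genes and their ratios, and not tested. They carry no TMM scaling, and WT replicate 4 had the lowest TMM factor, 0.864. Small differences between WT and KO means in FPKM can therefore depart from the fold changes. For Slc32a1 and Sst mean FPKM was higher in KO, whereas the log2 fold changes were -0.03 and -0.01. The lowest library total, 20282241 read pairs, makes 1 CPM about 20.3 read pairs. The test was checked on simulated counts.

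The 10 genes and the lists were chosen with earlier results of these data known, and the contrast between library series after the data were seen. Of each list, the 2 genes with the highest mean FPKM and those with an unadjusted p under 0.05 were named, and for Cck the 5 genes with the highest correlation. Some genes that this rule takes are not reported here. Symbols, positions and 3′ UTRs came from Gencode M21, and miRNA and promoter sequences from RefSeq (GRCm38.p6). Results were also computed with DESeq2 1.42.0, edgeR's quasi-likelihood test, other normalizations, filters and thresholds, unrounded counts, log2 FPKM with pseudocounts of 0.1 and 1, scaling to amacrine markers, the replicate number as a block, the series as a covariate or apart, WT libraries under 10 CPM of Xist, and each library left out. Library series were matched by the proportion of counts, not from the labels.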

Additional observations from a re-analysis of the deposited data

Results flagged for a closer look

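Of 40 sets of values examined by genotype, 3 sets of marker sums each had 1 library far from the others. How often chance alone gives such a library was not tested. The summed level of lens markers reached 130137 CPM in WT replicate 4, against no more than 53.0 CPM in the other WT libraries. In KO libraries it reached 27488 CPM in replicate 3, against no more than 3494 CPM in the others. The summed level of adipocyte markers in KO replicate 1 was 268.9 CPM, and the next KO library stood at 39.1 CPM. None of the 10 genes had such a library in either genotype.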

How the results depend on the processing

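Of 270 log2 fold changes of the 10 genes under the alternatives, 268 lay within 1 SD between libraries of the value given. This is a wide limit, since that SD, from 0.20 to 0.42, exceeded most of the fold changes themselves. The exceptions were Npy, at -0.39 with WT libraries under 10 CPM of Xist, and Penk, at 0.17 in the mouse-number series alone. Cck was below 0 under all 27 alternatives and Tac1 and Gad1 above 0 under all 27, although Gad1 fell to 0.002 relative to the amacrine markers. Sst was below 0 under 14 and above 0 under 13 of them, and Slc32a1 below 0 under 17 and above 0 under 10. The alternatives reuse the same libraries, and the set was chosen with Cck known to be lower in the KO. Nothing is therefore read from these signs. With each library left out, Cck ranged from -0.51 to -0.28 and Penk from -0.55 to -0.25. The number of genes called between genotypes, 1 of 15767 here, was 0 with edgeR's quasi-likelihood test (446 at an unadjusted p under 0.05) and 2 with DESeq2 or with at least 1 count in any library. It was 10 with the series as a covariate, 0 in the mouse-number series (520 at an unadjusted p under 0.05), 37 in the age series, 3 with WT libraries under 10 CPM of Xist, and between 1 and 11 with each library left out, the highest without KO replicate 1 and 2 without WT replicate 2. The pathway lists kept a count of 0 under all 25 alternatives. Of the 10 genes, between 5 and 7 were called between series with each library left out, and 0 with WT libraries alone, where fewer samples enter.

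The labels give both genotypes the same replicate numbers. Deviations of same-numbered libraries correlated between -0.33 and 0.63 (mean 0.22), against a mean of -0.04 for different-numbered libraries. Most same-numbered libraries also share a series, so these values cannot decide whether the numbers pair the animals. The numbers were not taken to pair them. With the replicate number as a block, and without KO replicate 6, 10 genes were called. Counting error is largest for Sst, whose counts were the lowest.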

Other observations

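The genes around the 10 described also differed between the library series. Of the 65 tested genes of the 6 lists, edgeR's likelihood-ratio test called 29 higher and 2 lower in the age series, with a median log2 difference of 0.22, against 14.6% of all tested genes called higher and 21.7% called lower. The counts were 9 higher of 17 genes of peptide processing, 8 of 16 GABA receptor subunits, 4 of 6 genes of GABA uptake and breakdown, 4 of 11 glycine genes, 3 of 9 peptide receptors and 1 of 6 other peptide precursors, and 1 glycine gene and 1 receptor were lower. The GABA transporter gene Slc6a11 was higher by 0.46 (edgeR adjusted p = 0.000105). Gabbr1 was higher by 0.29 (edgeR adjusted p = 0.0126). Gcsh, of the glycine cleavage system, was lower, at -0.38 (edgeR adjusted p = 0.00223). The contrast was chosen after the data were seen, and the part of tissue composition in it was not tested.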
